A study of Homo sapiens with 6 samples.

Results

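Of 18417 gene symbols tested, 10 genes of regulated vesicle release were followed in human neural stem cells given the compound X5050. They were chosen by name: SNAP25, SYT1, SYT4, SYN1, SYN3, UNC13A, STX1A, VAMP2, RAB3A and RAB27B. Each had 1 probe set with a single annotated symbol on the array, so all 10 were measured and none was lost to a filter. SNAP25, SYT4, SYN1 and UNC13A, 4 of the 10, are known targets of REST through the RE1 element, and the other 6 were set against them. X5050 is called a REST inhibitor in the series title, which gives the comparison its question: whether these genes differed with the compound, and the RE1 targets more than the rest.

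The cells were neural stem cells of the line SA-01, derived from human embryonic stem cells, at passage 14. Treated cells received X5050 at 100 µM, and the control cells received its solvent DMSO at 0.1%. Treatment began 5 h after plating on polyornithine and laminin and lasted 24 h in both groups. There were 3 arrays per group, from 3 independent cultures, numbered 1 to 3 in each group, and each change is a difference of log2 signals, X5050 minus DMSO, within the culture of the same number. All cultures came from 1 cell line and 1 concentration was used. The median log2 signal of the 6 arrays lay between 5.68 and 5.75 and their upper quartiles between 7.38 and 7.43. Of 10 markers of neural stem cells 8 lay above every array's upper quartile in both groups, among them SOX2 at 11.03 with X5050 and 10.88 with DMSO, while SOX1 and HES5 did not. Of 11 neuronal markers 8 did so too, among them STMN2 at 12.25 with X5050 and 12.22 with DMSO, while RBFOX3, ELAVL4 and SYP did not. In such RNA from a whole culture, more cells of a type and more transcript per cell cannot be told apart.

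Neurotransmitter release depends on a complex of 3 SNARE proteins. VAMP2 on the vesicle zips together with STX1A and SNAP25 on the plasma membrane and draws the membranes together. UNC13A opens STX1A and so primes vesicles, and SYT1 senses the calcium that triggers fusion. Synapsins hold vesicles in reserve, and the GTPases RAB3A and RAB27B bring them to the release site. REST, a zinc finger repressor, binds RE1 elements and keeps many such genes low outside neurons.

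The core of the RE1 element was searched for in RefSeq promoter windows (GRCh38.p14, 250 bases before to 50 after each transcript start). These windows were held for 8 of the 10 genes, SNAP25 and SYN3 being the exceptions. The motif was TCAGCACCNNGGACAG on both strands, a left arm TCAGCACC and a right arm GGACAG with 2 free bases between. SYN1 was the only one of the 8 genes with an exact copy, which 0.0399% of all 35116 windows hold. The left arm alone was in the windows of all 3 RE1 members that had one and in 0 of the 5 other members that had one, against 1.67% of all windows. These sequences are shown because they hold the left arm, and SYN1 alone among them holds the whole core at its fixed spacing. Each is 30 bases on the strand that holds the motif, with the left arm, and an exact right arm where one follows, in capitals.

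SYN1, chrX:47620067-47620096 (gene on the minus strand, motif on the gene strand): gccagctTCAGCACCgcGGACAGtgccttc
UNC13A, chr19:17688334-17688363 (gene on the minus strand, motif on the opposite strand): tcttggtTCAGCACCgggggcgcGGACAGc
SYT4, chr18:43277558-43277587 (gene on the minus strand, motif on the opposite strand): gctgaaaTCAGCACCtgcccccctcccctc

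In SYN1 the arms were 2 bases apart, and the left arm began at position -232 from the transcript start. In UNC13A they were 8 bases apart, around the transcript start itself. In SYT4 the left arm stood alone. Both arms on 1 strand with at most 10 bases between, a spacing limit chosen after these sequences were seen, occurred in 0.0883% of all windows. Among the other members the closest copies of the core were in RAB27B and SYT1, each with 11 of 14 fixed letters matching, a likeness that 4.80% of all windows reach or exceed. UNC13A also had 11 when the arms were held 2 bases apart. RAB3A, STX1A, VAMP2, SYT4 and the window of a later RAB27B start had 9 at best, which 83.1% of all windows reach or exceed. A match is a description of letters, and a window without one says nothing of sites elsewhere in the gene. The 250 bases before the start of SYN1, with the exact core in capitals, and of RAB27B at its first start, with its closest copy in capitals, are given because the gene with the exact core did not pass the test below and the other had the largest change.

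SYN1, chrX:47619858-47620107, minus strand: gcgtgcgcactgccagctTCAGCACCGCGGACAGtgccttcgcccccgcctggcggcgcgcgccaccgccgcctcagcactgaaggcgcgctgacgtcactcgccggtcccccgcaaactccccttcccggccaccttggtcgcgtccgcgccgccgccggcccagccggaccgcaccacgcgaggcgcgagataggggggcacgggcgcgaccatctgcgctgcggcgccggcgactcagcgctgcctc
RAB27B, chr18:54717607-54717856, plus strand: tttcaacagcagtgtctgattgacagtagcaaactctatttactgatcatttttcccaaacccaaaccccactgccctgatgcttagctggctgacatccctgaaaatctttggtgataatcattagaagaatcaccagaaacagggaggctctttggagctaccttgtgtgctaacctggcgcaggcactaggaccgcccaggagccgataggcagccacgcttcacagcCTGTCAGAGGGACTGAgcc

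Among the RE1 targets, SNAP25 was the clearest. Its log2 signal was 8.99, 9.11 and 9.52 with X5050 in cultures 1, 2 and 3, against 8.27, 8.51 and 8.85 with DMSO. All X5050 arrays lay above all DMSO arrays, and the step was nearly the same in the 3 cultures, at 0.72, 0.60 and 0.66. SNAP25, the membrane-anchored SNARE that supplies the bundle with a pair of helices, rose 1.58-fold (log2 change 0.66, paired SE 0.087, 95% interval 0.46 to 0.86, adjusted p = 0.0328 in the paired limma fit, n = 3 cultures). Among all probe sets 0.190% rose and 0.308% fell at this threshold, an adjusted p under 0.05. The call needs the pairing: without the replicate block the limma fit gave SNAP25 an adjusted p of 0.366 and called 0% of all probe sets, with 1824 at an unadjusted p under 0.05. It was also lost without culture 3 in the paired fit, with an adjusted p of 0.194 at a change of 0.66.

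SYT4, an unusual synaptotagmin found on dense core vesicles as well as synaptic ones, varied more between cultures. Its log2 signal was 8.61, 8.92 and 9.48 with X5050 and 8.17, 8.04 and 9.37 with DMSO. Culture 3 was bright in both conditions, so the groups overlapped although each culture was higher with X5050. The steps were 0.45, 0.88 and 0.11 (log2 change 0.48, paired SE 0.14, adjusted p = 0.163 in limma), and the change was 0.28 without culture 2 and 0.67 without culture 3.

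UNC13A, the priming factor, had a log2 signal of 6.73, 6.38 and 6.79 with X5050 and 6.24, 6.47 and 6.52 with DMSO. It was higher in cultures 1 and 3 and slightly lower in culture 2, and the groups overlapped (log2 change 0.22, 95% interval -0.052 to 0.49, adjusted p = 0.457 in limma). Without culture 1 the change was 0.090.

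SYN1, the synapsin with the exact RE1 core in its promoter window, showed no common direction. Its log2 signal was 6.39, 6.80 and 6.41 with X5050, against 6.42, 6.23 and 6.55 with DMSO. Culture 2 alone was higher, by 0.57, while cultures 1 and 3 stood at -0.027 and -0.15. The change over the 3 cultures was 0.13 (95% interval -0.19 to 0.45, adjusted p = 0.747 in limma), and -0.086 without culture 2. A rise of the size seen for SNAP25 (0.66) lay outside this interval.

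**Figure D1:**
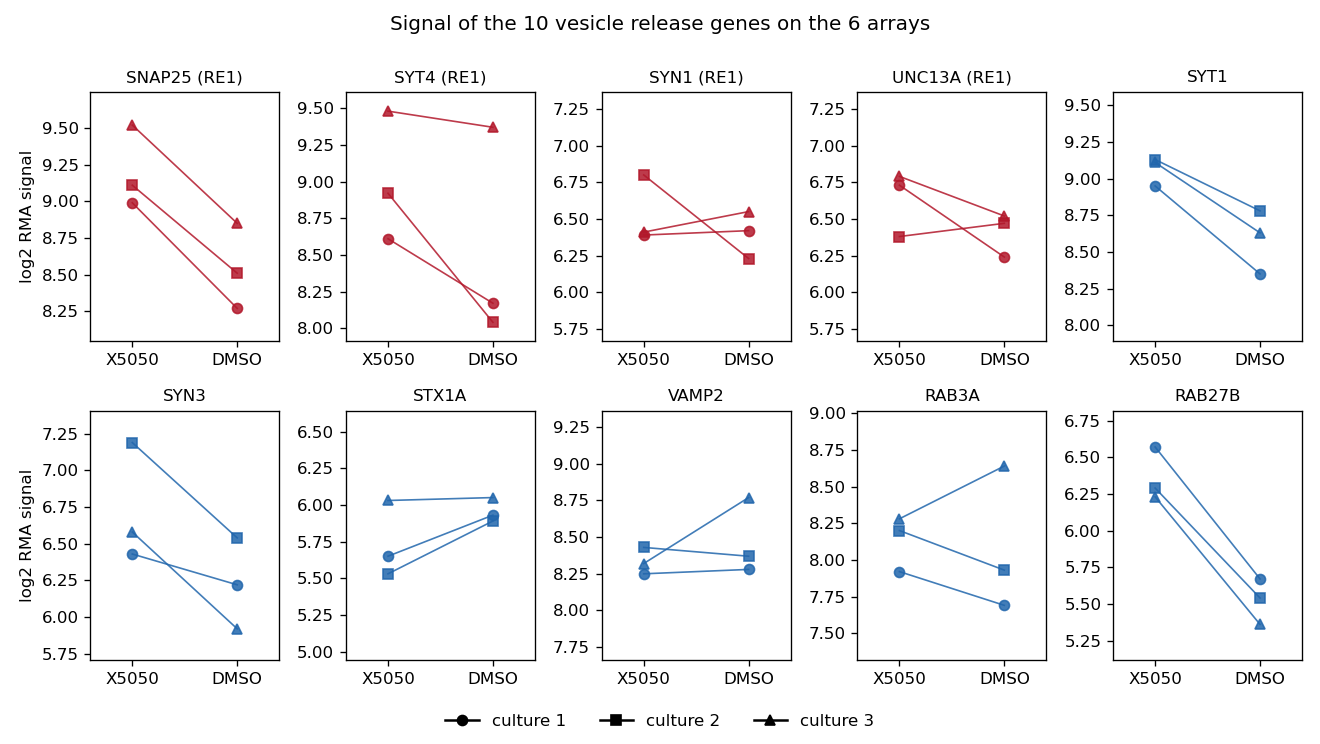
Log2 RMA signal (y axis, each panel centred on its gene and all of equal height in log2 units) of the 10 genes with X5050 (left) and DMSO (right), 1 line per culture, RE1 targets in red and the other members in blue. All lines of SNAP25, SYT1 and RAB27B slope the same way with no overlap between groups, while those of SYN1, UNC13A, VAMP2 and RAB3A slope both ways.

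The other 6 members were split. RAB27B, a GTPase that tethers secretory vesicles and granules for release, had the largest change of the 10. Its log2 signal was 6.57, 6.29 and 6.23 with X5050, against 5.67, 5.54 and 5.36 with DMSO. The DMSO values lay below the median of every array (5.68 to 5.75), and no detection measure was used. The groups did not overlap, and the steps were 0.90, 0.75 and 0.86. RAB27B rose 1.79-fold (log2 change 0.84, paired SE 0.089, 95% interval 0.63 to 1.04, adjusted p = 0.0177 in the paired limma fit), and ranked 10 among 19460 probe sets by p. Its adjusted p was 0.221 without the replicate block and 0.116 without culture 3.

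SYT1, the fast calcium sensor of synaptic vesicles, had a log2 signal of 8.95, 9.13 and 9.11 with X5050 and 8.35, 8.78 and 8.63 with DMSO. The groups did not overlap, and every culture was higher with X5050. Its change of 0.48 (1.39-fold, paired SE 0.093, 95% interval 0.27 to 0.69) missed the threshold, at an adjusted p of 0.0733 in limma. It passed with a mean-variance trend in the fit (adjusted p = 0.0342) and missed without the replicate block (0.342).

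SYN3, the synapsin made early in neuronal development, had a log2 signal of 6.43, 7.19 and 6.58 with X5050, against 6.22, 6.54 and 5.92 with DMSO. Each culture was higher, by 0.21, 0.65 and 0.65, but culture 1 with X5050 lay below culture 2 with DMSO. The change of 0.50 (1.42-fold, paired SE 0.11) had an adjusted p of 0.0985 in limma. That p was 0.0193 without culture 1, 0.211 without culture 2, 0.428 without culture 3 and 0.555 without the replicate block. Leaving out culture 1 also raised the calls over all probe sets, to 113 that rose and 233 that fell.

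The remaining 3 had changes near or below 0. STX1A, the plasma membrane partner of SNAP25, had a log2 signal of 5.65, 5.53 and 6.03 with X5050 and 5.93, 5.89 and 6.05 with DMSO. It was lower in every culture, by the largest amount in culture 2 and hardly in culture 3 (log2 change -0.22, 95% interval -0.45 to 0.0045, adjusted p = 0.350 in limma). VAMP2, the vesicle SNARE, had 8.25, 8.43 and 8.32 with X5050 and 8.28, 8.37 and 8.77 with DMSO. The difference lay in culture 3, at -0.45, beside -0.024 and 0.056 in cultures 1 and 2 (log2 change -0.14, 95% interval -0.40 to 0.13, adjusted p = 0.669), and without it the change was 0.016. RAB3A, the GTPase of synaptic vesicles that acts alongside RAB27B, had 7.92, 8.20 and 8.28 with X5050 and 7.69, 7.93 and 8.64 with DMSO. Cultures 1 and 2 were higher by 0.22 and 0.26 and culture 3 stood at -0.36 (log2 change 0.042, 95% interval -0.26 to 0.34, adjusted p = 0.931), so that its sign depended on which culture was left out.

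**Figure D2:**
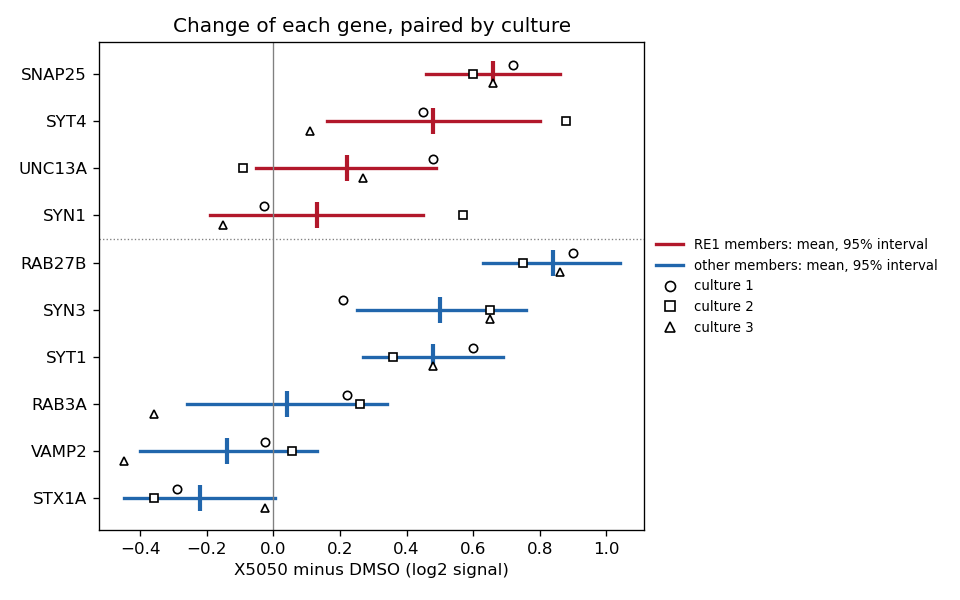
Change of each gene (x axis, X5050 minus DMSO in log2 signal) with its mean and 95% interval from the paired fit and the value of each culture as an open symbol, RE1 targets above the dotted line. RAB27B (0.84) and SNAP25 (0.66) lie farthest to the right, 1 from each class, and both classes reach to values near 0.

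Counted over the 10 genes, 2 rose, 0 fell and 8 did not pass, while 0.190% of all probe sets rose and 0.308% fell. Each class had 1 of those that rose (1 of 4 RE1 targets and 1 of the other 6). Of the 10 genes 5 were higher with X5050 in all 3 cultures, against 18.0% of all probe sets, and 1 was lower in all 3, against 17.5%. In 3 the X5050 arrays lay above all DMSO arrays, against 7.51% of all probe sets, and in 0 they lay below, against 7.41%. The genes were picked with earlier results of these arrays known, so these shares describe them and test nothing.

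The RE1 targets had a median change of 0.35 and the other 6 members one of 0.26, beside 0.0092 over all tested probe sets. The ranges overlapped, from 0.13 to 0.66 for the RE1 targets and from -0.22 to 0.84 for the rest. In cultures 1, 2 and 3 the RE1 median was 0.47, 0.59 and 0.19, and that of the other members 0.22, 0.31 and 0.23. The RE1 median was thus the higher by 0.25 and 0.28 in cultures 1 and 2 and stood -0.036 from the other in culture 3. All 4 RE1 targets were above 0 on average, as were 4 of the other 6 and 52.7% of all probe sets. Without the block and without DMSO replicate 2 the order of the medians turned, at 0.25 for the RE1 targets and 0.27 for the rest. REST mRNA, which encodes the repressor, was 8.31 with X5050 and 8.37 with DMSO (log2 change -0.057, paired SE 0.092).

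Partners in the same machinery differed in their changes. Within each culture the change of SNAP25 exceeded that of STX1A by 1.01, 0.96 and 0.69 log2 units and that of VAMP2 by 0.74, 0.55 and 1.11. RAB27B exceeded RAB3A by 0.68, 0.48 and 1.22. The change of SNAP25 exceeded that of SYN1, another RE1 target, by 0.75, 0.03 and 0.81, so these changes lay apart in cultures 1 and 3 and close together in culture 2. These pairs were chosen after their values were seen and were not tested.

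The wider release machinery was described with 87 further genes sorted by role, 84 of them measured. DOC2A counts under 2 roles. In the paired limma fit 0 rose and 0 fell, near the 0.190% and 0.308% of all probe sets. An unadjusted p under 0.05 was reached by 21 of 84, against 14.5% of all probe sets, and by 17 of 84 in the higher direction, against 7.06%. Of the 84 genes 58 were above 0, against 52.7% of all probe sets, with a median change of 0.070, and 26 were higher in all 3 cultures, against 18.0%. The counts above 0 by role that follow have the same background, and those of the SNARE and SM proteins and of the Rab3 and Rab27 group lie close to it. Of the 17 priming and active zone genes 16 were above 0, UNC13C (-0.018) being the exception, with a median of 0.099, and 9 were higher in all 3 cultures. PCLO, the giant active zone scaffold Piccolo, had the largest change (0.71, paired SE 0.12, adjusted p = 0.0558 in limma), at 0.40, 1.0 and 0.72 in the 3 cultures, and its groups overlapped. It passed in 5 alternatives, among them without dim probe sets (adjusted p = 0.0481) and without culture 1 (0.00781). Without the replicate block its adjusted p in limma was 0.458. PPFIA2, a liprin scaffold, stood at 0.29 (paired SE 0.097).

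The 15 measured genes listed as calcium sensors had a median of 0.083, with 11 above 0. They are synaptotagmins and DOC2 proteins listed by family, and whether each one binds calcium was not checked. They held the largest difference in the lower direction: SYT17, a synaptotagmin relative that lacks a transmembrane segment, was at -0.58 (paired SE 0.10, adjusted p = 0.0588 in limma). Its X5050 arrays lay below all DMSO arrays, with steps of -0.37, -0.63 and -0.76, opposite to SYT1 and SYT4. It passed without dim probe sets (adjusted p = 0.0493) and without culture 1 (0.0164), and missed without the replicate block (0.234). DOC2B, a soluble sensor with tandem C2 domains, stood at 0.36 on 1 of its 2 probe sets (paired SE 0.11, adjusted p = 0.189 in limma). Its mean signals were weak, 5.18 with X5050 and 4.82 with DMSO, and its groups overlapped.

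SNARE and SM proteins had a median of 0.0092, with 11 of 21 above 0. STXBP3, a Munc18 protein of general exocytosis, stood at 0.40 (paired SE 0.10) and STX3, a syntaxin of apical membranes and ribbon synapses, at 0.47 (paired SE 0.12). STX3 passed in limma without culture 1 (adjusted p = 0.0464) and missed without the replicate block (0.498). SNAP23, the widely used relative of SNAP25, stood at 0.28, SNAP29 at -0.0019 and SNAP47 at 0.0092.

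The 19 Rab3 and Rab27 proteins, regulators and effectors had a median of 0.030, with 11 above 0. RAB27A, the close relative of RAB27B, stood at -0.24, and SYTL2, an effector that binds Rab27, at -0.38 (paired SE 0.10), with its X5050 arrays below all DMSO arrays. RAB3IP, an exchange factor, stood at 0.31 (paired SE 0.093). RAB3B, RAB3C and RAB3D stood at -0.15, 0.040 and -0.038. Vesicle membrane proteins and the remaining synapsin had a median of 0.094, with 10 of 13 above 0. SV2C, a vesicle glycoprotein, stood at 0.53 (paired SE 0.11, adjusted p = 0.0936 in limma). SYNPR, synaptoporin, stood at 0.43 (paired SE 0.10). Its mean signals, 4.48 with X5050 and 4.05 with DMSO, were under the limit of 5 used to set dim probe sets aside. SYN2 stood at 0.23 and the vesicle marker SYP at 0.069.

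**Figure D3:**
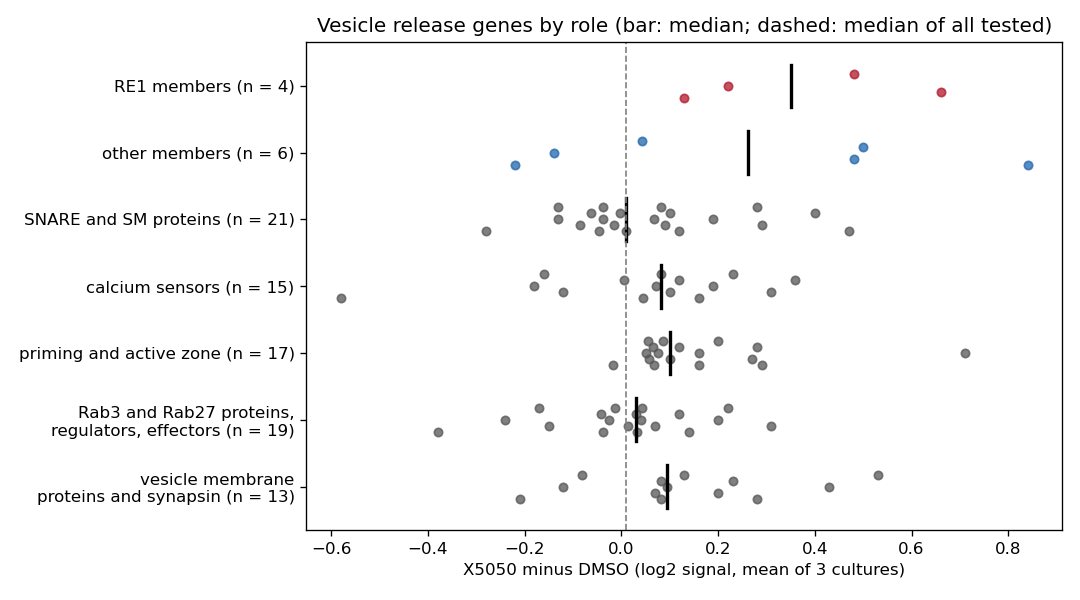
Change (x axis, X5050 minus DMSO in log2 signal, mean of 3 cultures) of the RE1 members, the other members and the wider list by role, 1 point per gene, with black bars at the medians and a dashed line at the median of all tested probe sets (0.0092). Of the priming and active zone points 16 of 17 lie above 0. Within the wider list PCLO (0.71) and SYT17 (-0.58) stand farthest out, and RAB27B (0.84), a member, lies farther right.

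No neuronal marker passed the test. Among all probe sets 0.190% rose and 0.308% fell, so 0 of 11 is near those shares. Of the 11 measured markers, SYP of the wider list among them, 4 were above 0, against 52.7% of all probe sets. The median was -0.078, and 0 had an unadjusted p under 0.05 in limma, against 14.5% of all probe sets. Their mean signal lay between 9.29 and 9.42 with X5050 and between 9.32 and 9.53 with DMSO. MAP2, a dendritic cytoskeletal protein, stood at 0.16 and INA, an intermediate filament, at -0.17. The 4 neuroendocrine markers had a median of 0.073 and 2 were above 0, with PTPRN at 0.20, SCG3 at 0.17, CHGA at -0.022 and INSM1 at -0.053. Neural stem cell markers had a median of -0.10 over 10 genes, and 0 passed, near the 0.190% and 0.308% of all probe sets. Of these markers 4 were above 0, SOX2 the highest at 0.15. In all 3 cultures 3 were lower, against 17.5% of all probe sets. The lowest were NES at -0.42 (adjusted p = 0.113 in limma) and MSI1 at -0.23 (0.354). These 2 of the 10 had all X5050 arrays below the DMSO arrays, against 7.41% of all probe sets.

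Of 9 mesenchymal markers 8 were below 0 and 1, TWIST1 (0.028), above, against 52.7% of all probe sets above 0. Their median was -0.14. LUM, a matrix proteoglycan, was the 1 of 9 that fell, against 0.308% of all probe sets. It fell by 1.09 (adjusted p = 0.0386 in the paired limma fit and 0.629 without the replicate block). TAGLN at -0.89 missed (adjusted p = 0.119 in the paired fit), and COL1A1 stood at -0.044. The mean signal of the mesenchymal markers spanned 6.36 to 7.63 with X5050 and 6.86 to 8.18 with DMSO. Their median change was -0.34, -0.16 and -0.16 in the 3 cultures. Astrocyte markers (6 genes) had a median of 0.099, with S100B at 0.20 and ALDH1L1 at 0.19. Markers of the oligodendrocyte lineage (5 genes) had a median of 0.041, with PDGFRA at -0.18 and OLIG1 at 0.10. Both lists held 0 genes past the threshold in limma, near the 0.190% that rose and 0.308% that fell among all probe sets. They also held 0 at an unadjusted p under 0.05, against 14.5% of all probe sets. Of 5 pluripotency markers only 2 were measured, DPPA4 at -0.32 and LIN28A at 0.0032, while POU5F1, NANOG and TDGF1 had no tested probe set. The part of a shift in cell types in the rise of SNAP25 and RAB27B was not tested.

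The profiles most like that of SNAP25 over the 6 arrays were found by the root mean square difference of log2 signals, each profile centred on its own mean. Symbols of unnamed loci, open reading frames and non-coding RNAs, and some numbered names such as those of KIAA and FAM, were left out. The closest of the rest was SLC17A8, a vesicular glutamate transporter, at 0.10, with a change of 0.56 that missed the threshold (adjusted p = 0.0558 in limma). ZBBX (0.61), the neuronal membrane protein NRSN1 (0.50), the clathrin-coat lipid binder CLVS2 (0.60) and the exchange factor DOCK3 (0.56) followed at distances of 0.11 to 0.13, and of these CLVS2 and DOCK3 rose (adjusted p = 0.0444 each in the paired limma fit). Nearest to RAB27B, at 0.11 to 0.15, were 1 of 4 probe sets of ANKRD11 (0.72), the pseudogene AMZ2P1 (0.63), the guidance cue SEMA3A (0.72), the lysosomal mannosidase MANBA (0.65) and the neuronal adhesion protein NEGR1 (0.78). All but SEMA3A passed (adjusted p from 0.0322 to 0.0481 in limma), though the other ANKRD11 probe sets did not (adjusted p from 0.345 to 0.493). The brightest ANKRD11 probe set went the other way, at -0.15, and was lower in all 3 cultures. In all 10 profiles named as nearest the X5050 arrays lay above the DMSO arrays, as the choice by likeness brings with it.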

How the data were processed

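Expression was measured on 1 Affymetrix array per sample from 100 ng of RNA, per the labels' protocols. The authors deposited log2 signals per probe set, and RMA and Partek are named in the submitters' processing notes. No version, setting or build is given in the sources used here. RMA commonly makes the arrays' distributions alike and shrinks differences of weak signals, and the folds given carry this. No detection measure was used.

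Of 33297 probe sets 19460 had 1 symbol in the platform annotation and were tested, 1754 had several and 12083 none. For each symbol the probe set with the highest mean was taken, except in the search for like profiles, which ran over all tested probe sets. The comparison of X5050 with DMSO used limma 3.58.1 (R 4.3.3, two-sided, Benjamini-Hochberg over 19460 probe sets) with the replicate number as a block, as the rule for these genes asks. Deviations from the group means of same-numbered arrays correlated at 0.365, 0.297 and 0.255 and pairs of unlike number from -0.236 to -0.052. The deviations within a group sum to 0, so positive values for like numbers by themselves draw those of unlike number below 0. The design text has each of 3 independent cultures given either agent, and the numbers were read as those cultures. With 3 pairs, an exact permutation test could not reach the threshold, and limma does so by pooling the spread over genes. The number of arrays limits the precision. The fit was tested on simulated data.

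The genes, lists and tests were chosen with earlier results of these data known. The named genes were the 10 members, wider-list genes past the threshold and the 2 with the smallest p in each role, the 2 of each marker list with the smallest p, REST and the 5 profiles closest to SNAP25 and to RAB27B. Relatives of the members, and SOX2, STMN2, SYP and other markers outside this rule, were named after their values were seen. Alternatives were the fit without the block, other normalizations, a filter on dim probe sets, a variance trend, median values over the probe sets of a gene and leaving out cultures or arrays. Sequences are from RefSeq (GRCh38.p14). Figures were drawn with matplotlib 3.10.9.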

Additional observations from a re-analysis of the deposited data

How the results depend on the processing

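The direction of SNAP25, RAB27B, SYT1, SYT4, SYN3, UNC13A and STX1A held in all 15 alternatives, from 0.51 to 0.82 for SNAP25 and from 0.73 to 0.91 for RAB27B. Some alternatives could not change it. Dropping the block alone, the trend, the dim filter and the median over probe sets leave the estimate of a gene with 1 probe set as it was. Groups without overlap (SNAP25, RAB27B and SYT1) keep their direction when arrays or cultures are left out. SNAP25 and RAB27B both passed in 7 of the 15. They missed without the replicate block, with or without an array left out, and without culture 3 in the paired fit. With 1 array or culture left out, RAB3A ranged from -0.16 to 0.32, SYN1 from -0.086 to 0.27 and VAMP2 from -0.24 to 0.016. The median of the RE1 targets ranged from 0.22 to 0.55 and that of the other 6 members from 0.10 to 0.34.

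Without the replicate block 0 members passed, and 0 probe sets rose and 0 fell (1 fell when DMSO replicate 1 was also left out). Leaving out 1 array or culture gave 0 to 3 members, 0 to 113 probe sets that rose, 0 to 233 that fell and 0 to 3 genes of the wider list, the highest counts without culture 1. Without culture 3, in the paired fit, all 4 counts were 0. The limma fit called 127 higher and 147 lower probe sets with a mean-variance trend, 18 and 33 after quantile normalization, and 66 higher ones without dim probe sets. Of the wider list 2 genes (PCLO and SYT17) passed with the trend and without dim probe sets, and 1 (PCLO) with arrays centred on their medians and with median values over the probe sets of a gene. Why these counts differ was not tested, apart from the fewer probe sets or arrays in some fits.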
